A study of Mus musculus with 12 samples.

Results

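The genes described are 10 components and regulators of antigen presentation by MHC molecules: B2m, Tap1, Tap2, Tapbp, Psmb8, Psmb9, Psmb10, Nlrc5, Ciita and Cd74. They were chosen by name, with earlier results of these data known. Each had a row by the platform annotation of the array, among 30897 genes with a row. All 10 passed the filter on dim genes and were among the 19838 genes tested. Cells came from the ear skin of C57BL6 mice that carried the lymphatic reporter Prox1-GFP (Tg(Prox1-EGFP)KY221Gsat). The age is given as 5 weeks for the series and as adult for each sample. Endothelial cells were enriched on beads against PECAM1 and sorted on podoplanin, the reporter and the hyaluronan receptor LYVE1. The groups were LYVE1-low or -negative cells of collecting vessels (col LEC), LYVE1-intermediate cells of pre-collecting vessels (pre-col LEC), LYVE1-high cells of lymphatic capillaries (cap LEC) and blood endothelial cells negative for podoplanin, the reporter and LYVE1 (BEC), with 3 arrays each. Every animal carried the reporter, so that the groups differ by the sorted phenotype (surface markers and reporter signal) and not by genotype. The vessel type of an LEC group is assigned from its LYVE1 level. The labels call the arrays biological replicates but do not say whether an array came from a single mouse or from pooled mice, so p-values measure the spread between these samples.

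Most nucleated cells display peptides from their own proteins on MHC class I molecules. The proteasome cuts proteins into peptides, the TAP transporter carries these into the endoplasmic reticulum, and tapasin helps to load them onto a class I heavy chain paired with beta-2 microglobulin. Interferon gamma induces alternative catalytic subunits of the proteasome, and NLRC5 is the main activator of class I genes. MHC class II molecules carry peptides from endosomes. Their expression depends on CIITA, and the invariant chain CD74 occupies their groove until they reach the endosome. In lymph nodes, lymphatic endothelium is known to present antigen in a way that can restrain T cells.

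Levels are log2 values after RMA, a method that corrects background, aligns the arrays and summarises the probes of each transcript. A difference of 1 on this scale is a 2-fold difference. Differences were tested with limma across all genes, and a gene was called at a Benjamini-Hochberg adjusted p under 0.05. Array medians lay between 6.06 and 6.17, and correlations between arrays of a group were 0.971 to 0.988. Markers of the sorted cells separated the groups, partly by construction, since Prox1, Pdpn and Lyve1, on which the cells were sorted, are among the lymphatic markers. The mean level of 6 lymphatic markers was 11.86 to 12.68 on the LEC arrays and 7.11 to 8.24 on the BEC arrays, and that of 8 blood endothelial markers was 7.46 to 8.05 on the LEC arrays and 10.86 to 11 on the BEC arrays. BEC replicate 1 stood apart from the other BEC arrays in these lymphatic markers, at 8.24 against 7.11 and 7.21. Genes of mural cells (pericytes and smooth muscle of the vessel wall) also followed the groups. The mean of 8 mural markers was 6.77 to 8.50 on the LEC arrays and 9.29 to 9.52 on the BEC arrays. The pericyte gene Rgs5 was at 6.67 to 10.21 on the LEC arrays and at 11.12 to 11.82 on the BEC arrays. The mean of 8 pan-endothelial markers was also lower on the LEC arrays, at 11.31 to 11.6 against 11.74 to 11.85. Of these 8, 4 were called lower in the mean of the LEC groups than in BEC and 1 higher. Of 3 keratinocyte markers tested, 2 were called lower and 0 higher. Over all genes tested, 10.7% were called lower and 12.1% higher.

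The promoters of B2m, Tap1 and Psmb8 are shown as examples of genes lower in LEC. They were picked because they hold matches to short motifs through which class I genes are known to be controlled. The part of these motifs in the lower levels was not tested. Each window of 300 bases runs from 250 bases before to 50 after the gene's start as annotated by RefSeq, and is printed 5′ to 3′ on the strand of the gene. Capitals mark matches, on either strand, to an interferon-response motif (GAAA, any 2 bases, GAAA), an interferon gamma activated site (TTCNNNGAA), the Y box bound by NF-Y (CCAAT) or the core of the X2 box bound by CREB family factors (TGACG).
B2m (GRCm38.p6, chr2:122147437-122147736, plus strand): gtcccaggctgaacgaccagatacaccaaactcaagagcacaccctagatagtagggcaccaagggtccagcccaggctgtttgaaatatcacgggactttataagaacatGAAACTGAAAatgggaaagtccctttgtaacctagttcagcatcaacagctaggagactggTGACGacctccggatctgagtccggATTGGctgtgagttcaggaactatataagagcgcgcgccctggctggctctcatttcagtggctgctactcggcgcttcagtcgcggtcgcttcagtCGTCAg
Tap1 (GRCm38.p6, chr17:34187306-34187605, plus strand): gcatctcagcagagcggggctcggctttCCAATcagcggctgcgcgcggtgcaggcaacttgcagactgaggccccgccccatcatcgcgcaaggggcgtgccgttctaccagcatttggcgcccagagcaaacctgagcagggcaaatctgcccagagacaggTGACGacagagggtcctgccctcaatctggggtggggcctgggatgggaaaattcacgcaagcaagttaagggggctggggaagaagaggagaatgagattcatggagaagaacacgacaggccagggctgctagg
Psmb8 (GRCm38.p6, chr17:34197945-34198244, plus strand): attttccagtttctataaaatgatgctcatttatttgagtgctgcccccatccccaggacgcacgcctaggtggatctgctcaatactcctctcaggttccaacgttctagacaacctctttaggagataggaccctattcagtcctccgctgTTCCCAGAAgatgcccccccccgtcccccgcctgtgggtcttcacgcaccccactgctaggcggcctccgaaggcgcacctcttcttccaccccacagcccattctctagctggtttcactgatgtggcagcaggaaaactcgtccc
The B2m window held the interferon-response motif 139 bases before the start, an X2 core 78 bases before it and, on the opposite strand, a Y box 53 bases before it and an X2 core 45 bases after it. Tap1 and Psmb9 lie head to head with starts 226 bases apart, so their windows share 275 bases. The capitals in the Tap1 window, a Y box 222 and an X2 core 86 bases before the start, are the same letters as the matches of Psmb9. The Psmb8 window held 1 match to the interferon gamma motif. No motif overlapped another. RefSeq windows were found for 6 of the 10 genes (B2m, Psmb10, Psmb8, Psmb9, Tap1 and Tapbp). The Psmb10 window held no match to any of these motifs. A Y box was present in 4 of the 6, against 37.4% of all 32851 windows, an X2 core in 3 of the 6, against 20.8%, and the 2 interferon motifs in 1 each, against 3.44% for the interferon-response motif and 8.3% for TTCNNNGAA. The Y box and X2 core shared by Tap1 and Psmb9 are the same sites but are counted for both genes, which raises these counts. A match describes the letters only.

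Genes of the class I pathway were lower in lymphatic than in blood endothelium. B2m, Tap1, Tap2, Tapbp, Psmb8, Psmb9, Psmb10 and Nlrc5 were all called lower in the mean of the LEC groups than in BEC, by 1.43-fold for Nlrc5 to 2.64-fold for Psmb10. The same 8 were called lower in col LEC, in pre-col LEC and in cap LEC when each was set against BEC. For these 8 genes, every one of the 9 LEC arrays lay below every one of the 3 BEC arrays. Ciita and Cd74, of the class II pathway, were not called in any of the 7 comparisons. In bulk RNA, fewer cells of a type and less RNA per cell cannot be told apart.

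The count of 8 of 10 called lower in the mean of the LEC groups stands against 10.7% of all genes tested (22.8% in either direction). In the single comparisons, 8.0% of genes were called lower in col LEC than in BEC (16.3% in either direction), 8.26% in pre-col LEC (15.7%) and 9.65% in cap LEC (20.8%). Arrays that did not overlap, with LEC below BEC, were found for 9.48% of all genes. At least 2-fold lower and called were 4 of the 10 genes and 2.94% of all genes. The median log2 fold change of the 10 genes was -0.88, against -0.02 for all genes tested. These comparisons share the BEC arrays and are not independent of each other. The 10 genes were chosen with earlier results of these data known. The 8 class I genes also varied together over the arrays, so they are not 8 separate observations. The shares are a description and not a test. BEC replicate 1, the BEC array with the highest lymphatic markers, had the lowest BEC level of Tap1, Tap2, Tapbp, Psmb8 and Psmb10. With that array left out, the LEC mean was lower than BEC by 0.49 (Nlrc5) to 1.61 (Psmb10) on the log2 scale, and all 8 genes were still called.

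**Figure D1:**
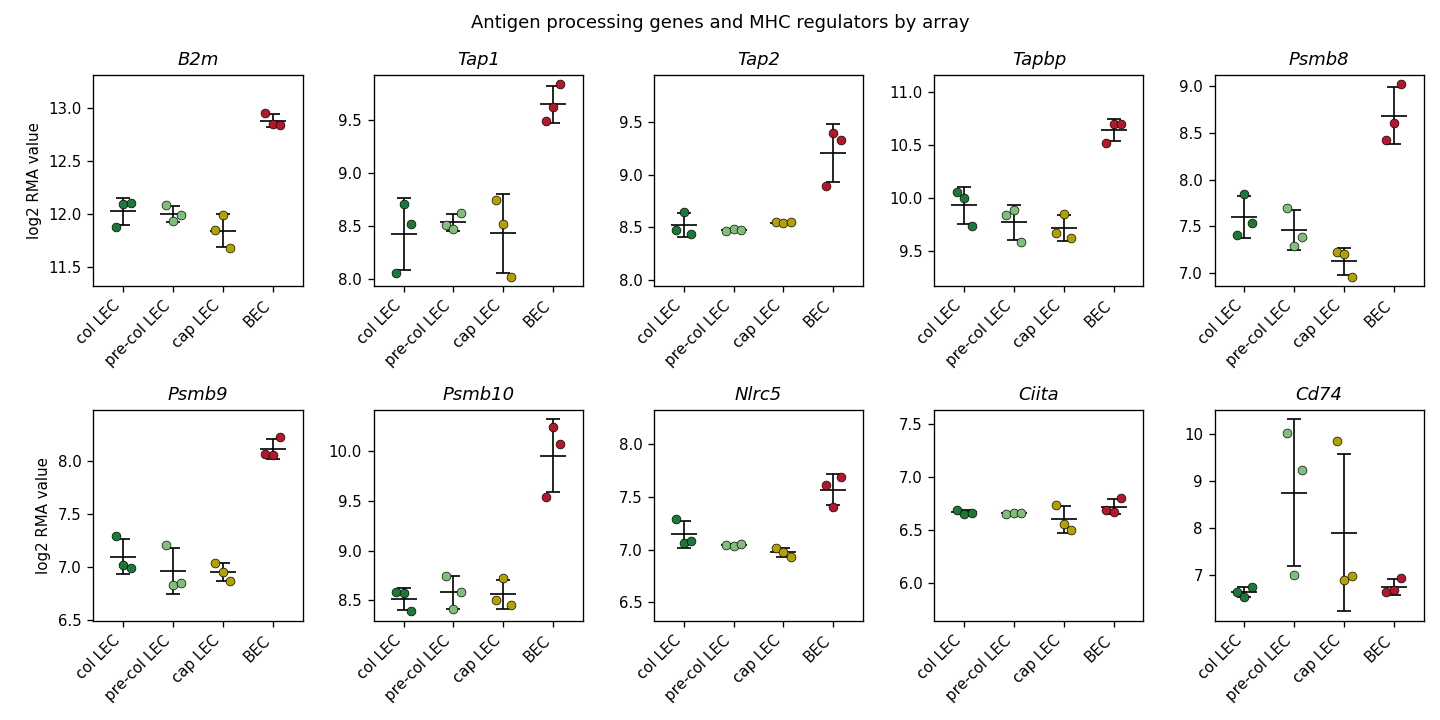
Level of each of the 10 genes (log2 RMA value, vertical axis, spanning at least 2 units but centred on each gene) in col LEC, pre-col LEC, cap LEC and BEC. Points are single arrays and black bars the mean and SD of 3 arrays. In 8 panels all LEC points lie below all BEC points, Ciita is flat, and Cd74 is high on 2 pre-col LEC arrays and 1 cap LEC array.

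B2m (transcript cluster TC0200001838.mm.1) encodes beta-2 microglobulin, the light chain of every class I molecule. It was at 11.88, 12.09 and 12.10 in col LEC, at 12.08, 11.93 and 11.99 in pre-col LEC, at 11.85, 11.99 and 11.68 in cap LEC and at 12.95, 12.85 and 12.84 in BEC. The LEC arrays formed a single band and the BEC arrays a higher one, 0.74 apart at the nearest points. The log2 fold change of the mean of the LEC groups against BEC was -0.92 ± 0.08 (SE, adjusted p = 2.51e-06 by limma), a level 1.9-fold lower.

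The peptide transporter is a pair of ABC proteins, TAP1 and TAP2. Tap1 (TC1700000621.mm.1) was at 8.05, 8.71 and 8.52 in col LEC, at 8.51, 8.47 and 8.62 in pre-col LEC, at 8.75, 8.52 and 8.02 in cap LEC and at 9.49, 9.63 and 9.84 in BEC. Its arrays scattered more within col LEC and cap LEC (SD 0.34 and 0.37) than within pre-col LEC (SD 0.08), but none reached the BEC level. Tap2 (TC1700000623.mm.1) was at 8.48, 8.65 and 8.44 in col LEC, at 8.47, 8.49 and 8.48 in pre-col LEC, at 8.55, 8.54 and 8.55 in cap LEC and at 8.89, 9.39 and 9.33 in BEC. The LEC arrays of Tap2 were tightly grouped, and BEC replicate 1 was the nearest to them, at a distance of 0.24. The differences from BEC were -1.19 ± 0.16 for Tap1 (adjusted p = 0.000124) and -0.69 ± 0.09 for Tap2 (adjusted p = 0.000173).

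Tapbp (TC1700002778.mm.1) encodes tapasin, which tethers class I molecules to the transporter. It was at 10.05, 10 and 9.73 in col LEC, at 9.84, 9.88 and 9.58 in pre-col LEC, at 9.67, 9.85 and 9.62 in cap LEC and at 10.52, 10.70 and 10.70 in BEC. Again the LEC groups overlapped each other and not BEC, and the difference was -0.84 ± 0.09 (adjusted p = 2.8e-05).

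Psmb8, Psmb9 and Psmb10 encode the catalytic subunits of the immunoproteasome. They take the places of the constitutive subunits encoded by Psmb5, Psmb6 and Psmb7. Psmb8 (TC1700000622.mm.1) was at 7.41, 7.85 and 7.54 in col LEC, at 7.70, 7.29 and 7.38 in pre-col LEC, at 7.22, 7.20 and 6.96 in cap LEC and at 8.42, 8.61 and 9.02 in BEC. All cap LEC arrays of Psmb8 were below all pre-col LEC and col LEC arrays, and all LEC arrays below BEC. Psmb9 (TC1700001902.mm.1), the neighbour of Tap1, was at 7.29, 7.02 and 6.99 in col LEC, at 7.21, 6.83 and 6.85 in pre-col LEC, at 7.04, 6.95 and 6.87 in cap LEC and at 8.07, 8.06 and 8.23 in BEC. Psmb10 (TC0800002842.mm.1), which lies on chromosome 8, was at 8.58, 8.57 and 8.39 in col LEC, at 8.75, 8.41 and 8.58 in pre-col LEC, at 8.50, 8.73 and 8.45 in cap LEC and at 9.54, 10.24 and 10.07 in BEC. For both genes the LEC groups lay within one range, and the nearest LEC and BEC arrays were 0.78 apart for Psmb9 and 0.79 for Psmb10. Against BEC the mean of the LEC groups differed by -1.29 ± 0.14 for Psmb8 (adjusted p = 1.84e-05), -1.11 ± 0.10 for Psmb9 (adjusted p = 2.91e-06) and -1.40 ± 0.13 for Psmb10 (adjusted p = 6.9e-06).

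The constitutive subunits had differences near or above 0. Psmb5, Psmb6 and Psmb7 had log2 fold changes of 0.09 (95% interval -0.13 to 0.31), 0.22 (0.05 to 0.39) and 0.18 (0.03 to 0.34) in the mean of the LEC groups against BEC, with adjusted p = 0.56, 0.0693 and 0.0906. None of these intervals overlaps those of the immunoproteasome subunits, which ran from -1.58 to -0.99 for Psmb8, from -1.33 to -0.90 for Psmb9 and from -1.69 to -1.11 for Psmb10. The difference between the subunits of either kind was not itself tested. In cap LEC alone, Psmb7 (0.34 ± 0.09, adjusted p = 0.0169) and Psmb6 (0.30 ± 0.10, adjusted p = 0.043) were called higher than in BEC. Psme1, a subunit of the interferon-induced proteasome activator, was lower in the mean of the LEC groups (-0.41 ± 0.07, adjusted p = 0.000571) and was the only gene called among the 7 constitutive subunits, activators and assembly factors tested. Psme3, Psme4 and Pomp were at 0.20, 0.05 and 0.09.

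Nlrc5 (TC0800001110.mm.1) encodes the class I transactivator. Its row also names the microRNA Mir7072, whose signal cannot be told apart from that of Nlrc5 on this row. It was at 7.29, 7.06 and 7.08 in col LEC, at 7.04, 7.03 and 7.05 in pre-col LEC, at 7.01, 6.98 and 6.93 in cap LEC and at 7.61, 7.40 and 7.69 in BEC. The gap between the highest LEC array, col LEC replicate 1, and the lowest BEC array was 0.11, the narrowest of the 8 genes. The difference of -0.51 ± 0.07 (adjusted p = 0.000248) was also the smallest of the 8. On average 71.0% of the array's negative control rows were below Nlrc5 on the LEC arrays and 81.1% on the BEC arrays, a position near the low end of the scale. Psmb9, with 70.1% below it on the LEC arrays and 87.9% on the BEC arrays, and Psmb8, with 76.3% and 92.2%, were low on the LEC arrays too. Of the 8 genes, only B2m and Tapbp were above the 95th percentile of the negative controls (8.92 to 9.34 by array) on the LEC arrays. On the LEC arrays Tap1, Tap2, Psmb8, Psmb9, Psmb10 and Nlrc5 lay below it, so their folds are those of the measured signal, background included, and not of the RNA itself.

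**Figure D2:**
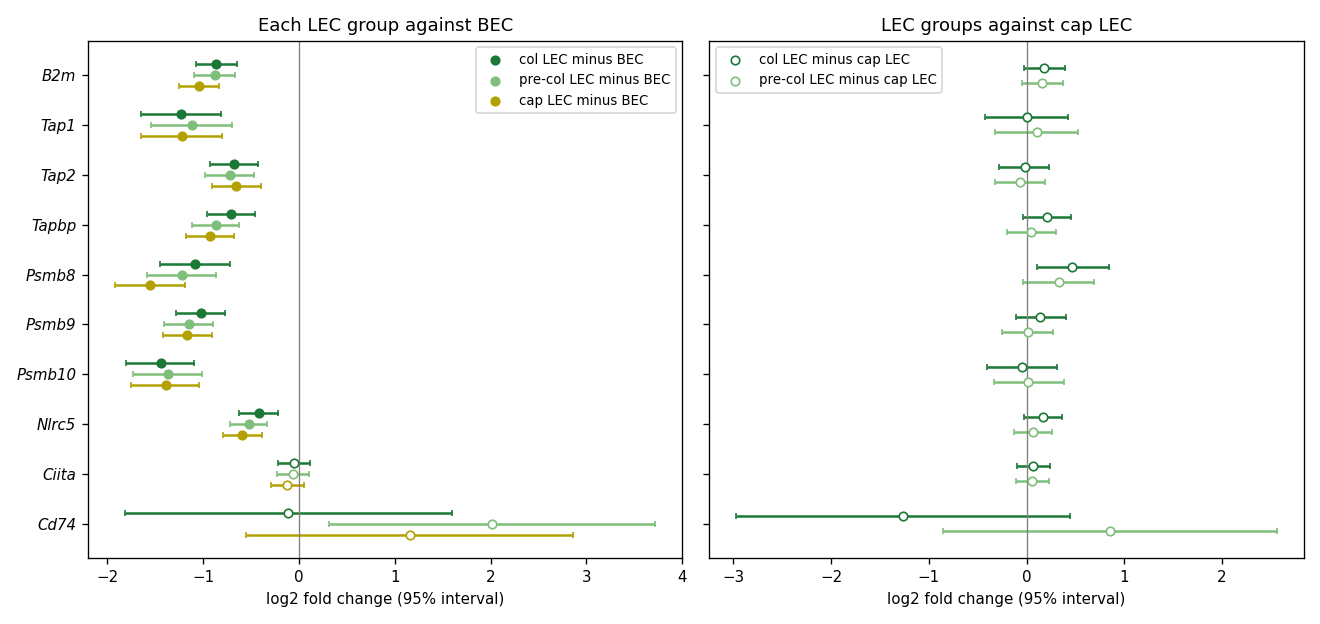
Log2 fold changes with 95% intervals of the 10 genes in each LEC group against BEC (left) and in col LEC and pre-col LEC against cap LEC (right), from limma on 12 arrays. Filled symbols passed an adjusted p under 0.05. On the left the 8 class I genes are filled in all 3 groups. On the right no symbol is filled.

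Along the lymphatic tree, none of the 10 genes was called between LEC groups. That is 0 of 10 for col LEC against cap LEC, where 1.73% of all genes were called, 0 of 10 for col LEC against pre-col LEC (0.307% of all genes) and 0 of 10 for pre-col LEC against cap LEC. In the last of these comparisons 0.0% of genes were called by limma, while 1281 genes (6.46%) had an unadjusted p under 0.05, and limma called 14 genes after cyclic loess and 28 with array weights. Mean levels of the 8 class I genes differed between the LEC groups by 0.07 (Tap2 and Psmb10) to 0.47 (Psmb8). BEC came first in the order of means for all 8. For B2m, Tapbp, Psmb8, Psmb9 and Nlrc5 the order then ran col LEC, pre-col LEC, cap LEC. For Tap1 and Psmb10 it ran pre-col LEC, cap LEC, col LEC, and for Tap2 cap LEC, col LEC, pre-col LEC. No neighbours among the LEC groups differed beyond their spread by limma. Psmb8 had the largest difference of the 8, 0.47 ± 0.17 in col LEC against cap LEC (95% interval 0.11 to 0.84, unadjusted p = 0.0159, adjusted p = 0.279). The median over the 8 genes was 0.16 in col LEC against cap LEC, with 0.03 for all genes, and 0.06 in pre-col LEC against cap LEC, with 0.00 for all genes. B2m was at 0.18 (95% interval -0.03 to 0.39) and Tap1 at 0.00 (-0.42 to 0.42) in col LEC against cap LEC; differences inside these intervals are not excluded.

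The mural markers moved with the comparison against BEC. All 8 were called lower in the mean of the LEC groups, against 10.7% of all genes, with a median log2 fold change of -1.98. Their part in the difference of the class I genes was not tested. Within LEC, pre-col LEC replicate 1 had the highest mean of the 8 mural markers (8.50). On that array Psmb10 at 8.75 was the highest LEC value, and B2m at 12.08, Psmb8 and Psmb9 were near the top of the LEC range. Tap1 at 8.51, Tapbp and Nlrc5 were near the middle of that range, and Tap2 was near its lower end. The mean of 6 leukocyte markers was 6.08 to 6.33 on the LEC arrays and 6.43 to 6.48 on the BEC arrays. Of the 4 that could be tested, only Lcp1, an actin-bundling protein, was called, with 5.82 to 6.40 on the LEC arrays and 7.65 to 7.99 on the BEC arrays. Ptprc, which defines leukocytes, was too dim to be tested.

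Ciita (TC1600000116.mm.1), the class II transactivator, was flat. It was at 6.69, 6.65 and 6.66 in col LEC, at 6.65, 6.66 and 6.66 in pre-col LEC, at 6.74, 6.56 and 6.50 in cap LEC and at 6.69, 6.67 and 6.80 in BEC, and all groups overlapped. The difference between the mean of the LEC groups and BEC was -0.08 (95% interval -0.21 to 0.06, adjusted p = 0.419). Between 63.1% and 67.9% of negative control rows were below it in the 4 groups, so that a low level of expression was not distinguishable from background on this array.

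Cd74 (TC1800000617.mm.1), the invariant chain, varied widely between arrays of pre-col LEC (SD 1.56) and of cap LEC (SD 1.68) and little within col LEC (SD 0.10) and BEC (SD 0.16). Its row also names the microRNA Mir5107. It was at 6.64, 6.55 and 6.75 in col LEC, at 10.02, 7.02 and 9.25 in pre-col LEC, at 9.85, 6.91 and 6.98 in cap LEC and at 6.64, 6.69 and 6.94 in BEC. The 3 high arrays, pre-col LEC replicates 1 and 3 and cap LEC replicate 1, were at 9.25 to 10.02, and the other 9 at 6.55 to 7.02. The difference between the mean of the LEC groups and BEC was 1.02 ± 0.64 (95% interval -0.37 to 2.41, adjusted p = 0.28). For pre-col LEC against BEC it was 2.01 ± 0.78 (adjusted p = 0.118). That comparison passed the threshold when pre-col LEC replicate 2 was left out (2.88, adjusted p = 0.0166) or when cap LEC replicate 1 was left out (2.01, adjusted p = 0.0334), and with none of the 3 high arrays it was 0.27 (adjusted p = 0.456). Of all genes, 7.47% were called higher in pre-col LEC than in BEC. The order of means was pre-col LEC, cap LEC, BEC, col LEC, and col LEC against pre-col LEC, at -2.12, did not pass the threshold (adjusted p = 0.653).

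Genes of the class II molecule were high on the same 3 arrays. H2-Eb1, a beta chain, was at 8.95 to 9.34 on these arrays and at 7.20 to 7.48 on the other 9. H2-Ab1, another beta chain, was at 8.26 to 8.78 and at 7.09 to 7.57, and the alpha chain H2-Aa at 6.53 to 6.86 and at 5.83 to 6.15. The same was true of Ctss, the protease that cuts the invariant chain (6.63 to 7.34 on the 3 arrays and 5.91 to 6.17 on the others), and of Lyz2, a lysozyme of myeloid cells (6.77 to 7.27 and 5.54 to 6.08). Their ranges did not overlap, whereas those of H2-DMa and H2-DMb1, which exchange peptides on class II, did. These 3 arrays were the highest for 3 of the 9 class II genes with a row (8 tested), and for 54 of 19838 genes tested (0.272%). The arrays were picked by their Cd74 values. The filter asks for 3 arrays above the array median, so a gene dim elsewhere can pass it through these arrays alone. The shares are a description only. Cd86, a costimulatory ligand of antigen-presenting cells that was too dim to be tested, was also highest on these arrays, at 5.43 and 5.12 on the pre-col LEC arrays and 5.73 on the cap LEC array, against 4.75 to 5.10 on the other 9. Of 11 macrophage markers only Lyz2 had its highest values there, and of 10 dendritic and Langerhans cell, 6 leukocyte, 5 B cell and 5 T cell markers none did. Cd209a, a lectin of dendritic cells, was at 7.24 on cap LEC replicate 1, at 6.42 on pre-col LEC replicate 1 and at 6.19 on pre-col LEC replicate 3. Ptprc was at 4.94 on pre-col LEC replicate 1, at 4.33 on pre-col LEC replicate 3 and at 4.32 on cap LEC replicate 1. Neither gene had these as its 3 highest arrays. Against BEC, Cd209a differed by 0.47 in cap LEC (adjusted p = 0.175 by limma), 0.15 in pre-col LEC (adjusted p = 0.73) and 0.11 in col LEC (adjusted p = 0.818). The mean of the 11 macrophage markers was 6.87 and 6.92 on the high pre-col LEC arrays (replicates 1 and 3) and 6.91 on the high cap LEC array, against 6.67 to 6.83 on the other 6 LEC arrays and 6.77 to 6.96 on the BEC arrays. The 6 leukocyte markers averaged 6.33, 6.13 and 6.29 on the same 3 arrays, against 6.08 to 6.13 on the other LEC arrays. Both means were thus at the upper end of the LEC arrays on pre-col LEC replicate 1 and cap LEC replicate 1. The macrophage mean includes Lyz2, itself high on the 3 arrays, and so is not a separate observation from that gene. Pre-col LEC replicate 1 also had the highest mean of 7 fibroblast markers (8.47), which was 6.86 on each of the other high arrays and 6.45 to 7.59 on the remaining LEC arrays. The dendritic and Langerhans cell markers averaged 6.37 to 6.51 on the LEC arrays, with 6.48, 6.44 and 6.51 on the 3 high ones. The part of other cells in the Cd74 values was not tested.

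**Figure D3:**
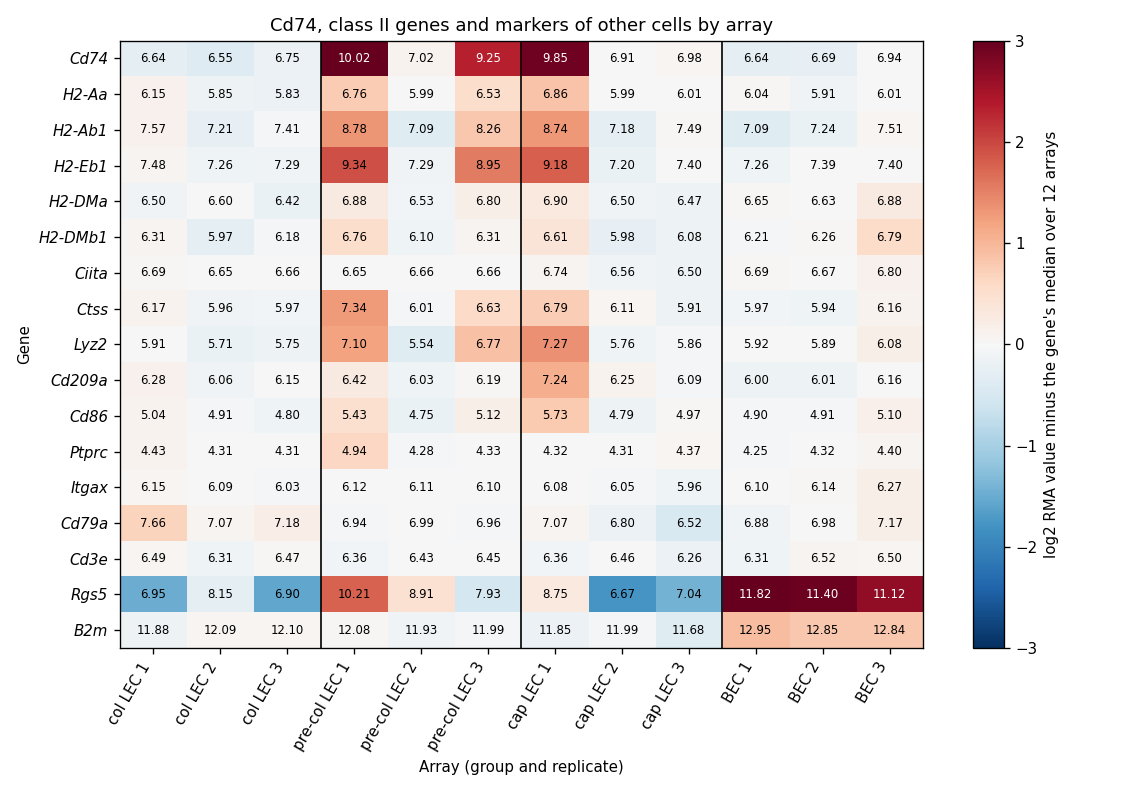
Log2 RMA values (numbers in the cells) of Cd74, class II genes, markers of other cell types and B2m on the 12 arrays. Colour shows each value minus the gene's median over the arrays, clipped at 3 units. Cd74, H2-Aa, H2-Ab1, H2-Eb1, Ctss and Lyz2 are highest on pre-col LEC replicates 1 and 3 and cap LEC replicate 1, while Ciita stays flat and B2m is highest in BEC.

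Most class I heavy chains were lower in LEC as well. Of 12 class I and class I-like genes tested, 8 were called lower in the mean of the LEC groups than in BEC and 1 higher. Over all genes, 10.7% were called lower and 12.1% higher. The median log2 fold change of the 12 genes was -0.34. H2-K1, a classical heavy chain, was at 10.06, 10.18 and 10.04 in col LEC, at 9.98, 9.74 and 9.73 in pre-col LEC, at 9.74, 9.89 and 9.73 in cap LEC and at 10.95, 10.99 and 10.91 in BEC (-1.05 ± 0.07, adjusted p = 3.25e-07). H2-Q4 (-0.80), H2-T24 (-0.79) and H2-D1, the other classical chain (-0.73), were lower as well. Genes of this family are near copies and may share probes, so single members are uncertain and the 8 calls may not be separate observations. The other 3 were not called. Mr1, which presents vitamin metabolites to a class of innate-like T cells, was the gene of the list called higher in LEC, with 9.44 to 10.18 on the 9 LEC arrays and 8.90 to 9.26 on the 3 BEC arrays (0.83 ± 0.12, adjusted p = 0.00027).

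Of 8 partners in loading and trimming tested, 2 were called lower in the mean of the LEC groups than in BEC and 3 higher, against 10.7% lower and 12.1% higher over all genes. Erap1, the peptidase that trims class I peptides in the endoplasmic reticulum, was at -1.07 ± 0.14 (adjusted p = 0.000116), and Tapbpl, a relative of tapasin that edits peptides, at -0.67 ± 0.11 (adjusted p = 0.000509). Ide, a cytosolic protease (0.61), the chaperone Canx (0.30) and the chaperone Calr (0.25) were higher. In col LEC against cap LEC, Erap1 was at 0.71 ± 0.17, which did not pass the threshold (adjusted p = 0.0716).

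Genes of interferon gamma signalling were lower or not called. Of 11 tested, 5 were called lower in the mean of the LEC groups than in BEC and 0 higher (median -0.31), against 10.7% lower and 12.1% higher over all genes. Irf1, a transcription factor that activates Tap1 and Psmb9, was at -1.23 ± 0.15 (adjusted p = 5.33e-05). The receptor chain Ifngr1 was at -1.17 ± 0.13 (adjusted p = 2.39e-05), the kinase gene Jak2 at -0.78 and the feedback inhibitor Socs1 at -0.44. Ifngr1 was at 8.69 to 9.09 on the LEC arrays and at 9.71 to 10.30 on the BEC arrays. Irf1 was at 0.72 ± 0.18 in col LEC against cap LEC (adjusted p = 0.0784). Of the 7 genes tested for factors that bind MHC promoters (the RFX and NF-Y complexes and Creb1), only Nfya was called (0.41 ± 0.10, adjusted p = 0.00913), and higher in LEC. None of 8 tested class II genes was called in the mean of the LEC groups against BEC (median -0.06). That does not show equal levels. H2-Aa was at 5.83 to 6.15 on 9 of the arrays, near the array medians of 6.06 to 6.17. H2-Ab1, which varied between arrays, was at 0.47 ± 0.34 (adjusted p = 0.356 by limma), so a difference of that size is not excluded.

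**Figure D4:**
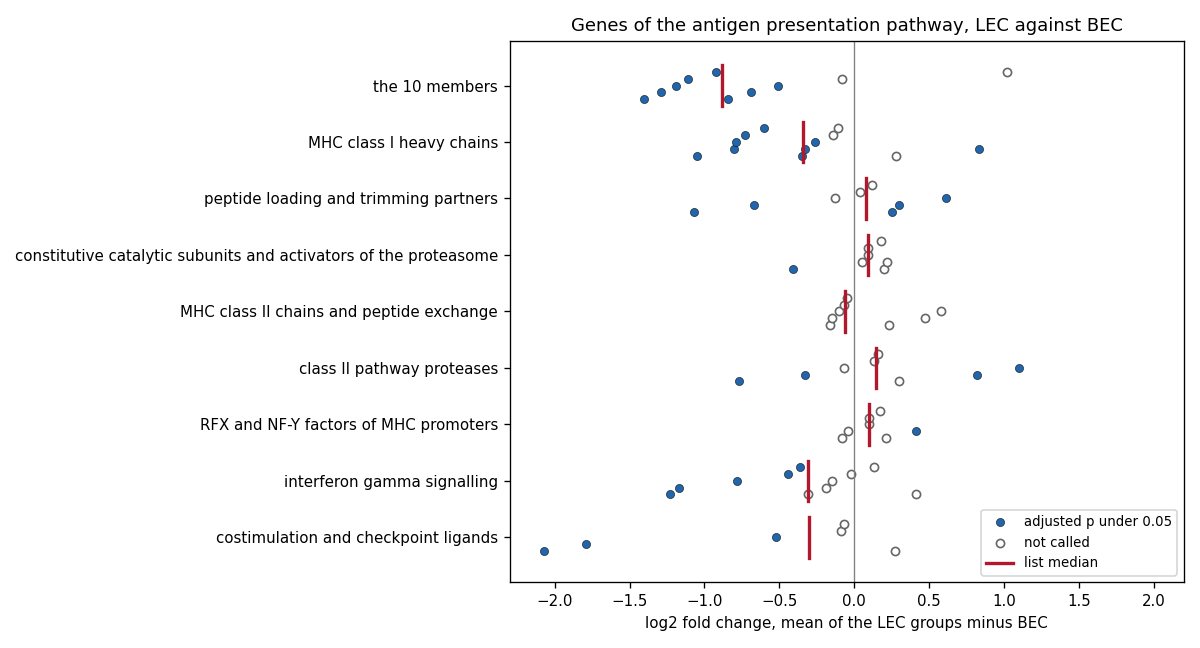
Log2 fold changes between the LEC mean and BEC for the 10 genes and 8 further lists of the pathway. Each point is a gene, filled where the adjusted p was under 0.05, and red bars are list medians. The 10 genes have the lowest median (-0.88), and the constitutive proteasome list lies near 0 apart from Psme1 (-0.41).

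Over the 12 arrays, Pearson correlations among the 8 class I genes were 0.80 to 0.97 over 28 pairs, with a median of 0.91. Over the 9 LEC arrays alone they were -0.32 to 0.85, with a median of 0.25. The genes most like the mean of the 8 over the 12 arrays, among 14320 compared, were Endou, B3gnt3, Lzts2, Cd247 and Kifc3, with r between 0.989 and 0.992. They were lower in LEC than in BEC by 0.86 (Lzts2) to 1.31 (Endou) on the log2 scale. The genes most like Cd74 were H2-Eb1 (r = 0.989), H2-Aa (0.962), H2-Ab1 (0.959), Lyz2 (0.958) and Ctss (0.942). Those most like Ciita were Glyctk, Prss33, Nodal, Tnfrsf18 and Ovol2 (r = 0.949 to 0.976), each of which, like Ciita, varied little over the arrays. These correlations are descriptions over arrays that share groups.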

How the data were processed

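RNA was extracted with a column kit and 500 pg per sample was amplified into labelled sense-strand cDNA, per the labels' protocols. The deposited log2 values had been made by the authors with RMA, which the submitters' processing notes name. No software version or genome build is stated in the labels. The table held 72688 rows. Names came from the platform annotation, updated through a RefSeq gene table (GRCm38.p6): 31263 rows named 1 gene, 196 named 1 gene and its microRNAs and were used for that gene, and 1291 named several and were left out. Each gene was represented by its brightest row. A gene was tested if it exceeded the median of its array on 3 or more of 12 arrays (19838 genes). Group means were fitted with limma 3.58.1 (R 4.3.3) on all 12 arrays, with Benjamini-Hochberg adjustment over all genes tested and two-sided tests. The fit was tested on simulated data. Errors of fold changes are moderated standard errors. The precision is limited by 3 arrays per group, and the median SD within groups was 0.140. RMA compresses weak signals and hides changes in total RNA per cell.

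Named genes were the 10 members, up to 4 called genes of each pathway list per comparison with the largest fold change (or the 2 with the smallest p), the sort and marker genes, and the 5 genes most like each of 3 patterns by Pearson correlation. Psmb5, Psme3, Psme4, H2-DMb1 and the dim ligands lie outside this rule and were named after their values were seen. The members and lists were chosen with earlier results of these data known. Alternatives were another normalization, no filter, a variance trend with a robust prior, array weights, only the groups compared, a replicate block, the mean over a gene's rows and leaving out each array. Use of rows without microRNAs, and leaving out the 3 arrays with high Cd74, were added after seeing the data. Promoter sequences are from RefSeq (GRCm38.p6). Some listed genes were not analysed here.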

Additional observations from a re-analysis of the deposited data

How the results depend on the processing

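The 8 class I genes kept their direction against BEC in each LEC group and in the LEC mean under all alternatives run on them. The number of the 10 genes called was 8 in these 4 comparisons under each alternative, with 3 exceptions. It was 7 in all 4 when rows naming a microRNA were left out, since Nlrc5 and Cd74 then have no row. For pre-col LEC against BEC it was 8 to 9 when 1 array was left out (9, with Cd74, without pre-col LEC replicate 2 or cap LEC replicate 1), and 6 without the 3 arrays with high Cd74, which leaves a lone pre-col LEC array assumed to vary like the others (Tap2 -0.71, adjusted p = 0.0529, and Nlrc5 -0.53, adjusted p = 0.0653). Between LEC groups 0 were called under every alternative. With the replicate block the count stayed at 8 against BEC and at 0 between LEC groups. The labels state no pairing. Deviations of same-numbered arrays correlated at -0.093 to 0.207 (median 0.092, 18 pairs) and those of differently numbered arrays at -0.148 to 0.175 (median -0.036, 36 pairs). The 9 same-numbered pairs between LEC groups were all positive (0.045 to 0.207). All differently numbered pairs between LEC groups were lower (-0.148 to 0.022). That is partly by construction, since the deviations of the 3 arrays of a group sum to 0. Positive same-numbered pairs thus push the others down, and the 2 ranges are not separate observations. Among LEC arrays the same-numbered ones were thus the most alike, a hint from the data and not the design. With BEC the numbers separated less, as col LEC replicate 1 correlated best with BEC replicate 3 (0.175). The main fit leaves the numbers out, and the replicate block is the alternative that takes them in. All genes called numbered 343 in col LEC against cap LEC, 187 to 374 with 1 array left out (187 to 207 without any one of the col LEC or cap LEC arrays), 814 with array weights and 189 without the 3 arrays. In col LEC against pre-col LEC they were 61, 25 to 66 with 1 array left out (25, 34, 27, 35 and 40 without col LEC replicates 1 and 2, pre-col LEC replicates 2 and 3 and cap LEC replicate 3), 159 with array weights, 5 with only the groups compared and 7 without the 3 arrays. In pre-col LEC against cap LEC they were 0, 14 with cyclic loess, 28 with array weights, 3 with the replicate block and 0 to 1 with 1 array left out (1 without pre-col LEC replicate 1, cap LEC replicate 1 or BEC replicate 1). In pre-col LEC against BEC they were 3120, and 1732 without the 3 arrays.

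Between LEC groups, values near 0 that were never called changed sign, and the cause was not tested. In col LEC against pre-col LEC, B2m was at -0.02 with cyclic loess and -0.02 to 0.09 with 1 array left out, Tap1 at -0.25 to 0.08, Tap2 at -0.02 to 0.08, Psmb10 at -0.16 to 0.02 and Ciita at 0.00 to 0.02 with 1 array left out, Psmb10 at 0.10 without the 3 arrays and Ciita at 0.00 with cyclic loess. In col LEC against cap LEC, Tap1 was at 0.03 with cyclic loess, 0.02 with array weights, 0.16 without the 3 arrays and -0.21 to 0.19 with 1 array left out. Tap2 was at 0.01 with cyclic loess and -0.09 to 0.02, and Psmb10 at -0.10 to 0.04, with 1 array left out. In pre-col LEC against cap LEC, the values with 1 array left out were -0.10 to 0.27 for Tap1, 0.00 to 0.15 for Tapbp, -0.11 to 0.08 for Psmb9 and -0.06 to 0.11 for Psmb10. With array weights Tapbp was at -0.06, Psmb9 at -0.05 and Psmb10 at -0.07, without the 3 arrays Psmb9 was at -0.08 and Psmb10 at -0.18, and with cyclic loess Psmb9 was at -0.01.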

Other observations

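Of 10 genes for costimulation and checkpoint ligands, 6 could be tested. The mean of the LEC groups was called lower than BEC for 3 of the 6 and higher for 0, against 10.7% lower and 12.1% higher over all genes, with a median log2 fold change of -0.30. Cd274, which encodes the checkpoint ligand PD-L1, was at 6.15 to 6.90 on the 9 LEC arrays and at 8.19 to 8.97 on the 3 BEC arrays (-2.07 ± 0.17, adjusted p = 1.66e-06 by limma). Tnfsf9, the ligand of the costimulatory receptor 4-1BB, was at -1.79 ± 0.15 (adjusted p = 1.69e-06) and Icosl, the ligand of ICOS, at -0.52 ± 0.13 (adjusted p = 0.0143). On the LEC arrays 61.1% of negative control rows were below Cd274, 45.5% below Tnfsf9 and 63.6% below Icosl, so that LEC levels were not distinguishable from background and these measured differences may understate the change in RNA. Cd276, a relative of these ligands, was the only gene of all pathway lists called between LEC groups, at -0.79 ± 0.16 in col LEC against cap LEC (adjusted p = 0.0265). Cd80, Cd86, Pdcd1lg2 and Tnfsf4 were too dim to be tested.

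Of 8 genes of the class II protease list that were tested, 2 were called higher in the mean of the LEC groups than in BEC and 2 lower, against 12.1% higher and 10.7% lower over all genes. Ctsh, a cathepsin, was at 9.20 to 9.76 on the LEC arrays and at 7.82 to 8.60 on the BEC arrays (1.10 ± 0.14, adjusted p = 6.62e-05). Lgmn, the asparagine-specific protease legumain, was higher by 0.82 ± 0.09 (adjusted p = 1.79e-05). Ifi30, an interferon-induced thiol reductase, was at -0.77 ± 0.25 (adjusted p = 0.0452), and the cathepsin inhibitor Cst3 at -0.33 ± 0.05 (adjusted p = 0.000746).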
